A study of Mus musculus with 17 samples.

Results

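Complexes II to V of the mitochondrial respiratory chain, with the electron carrier cytochrome c, are built from subunits encoded in the nucleus and, for complexes III, IV and V, a few encoded in mitochondrial DNA. The 43 nuclear genes described here were chosen by their symbols among the 31647 features of the count table. They were every protein-coding gene whose symbol is Sdha to Sdhd, Cyc1, Cycs or Ndufa4, or begins with Uqcr, Cox4 to Cox8 or Atp5, apart from 6 genes (Cox6a1, Cox6a2, Cox7a1, Cox7a2, Cox8a and Cox8b). By complex they comprised 4 genes of complex II, 9 of complex III, the 1 gene for somatic cytochrome c, 12 of complex IV and 17 of complex V. The rule uses symbols and no measured value, although earlier results of these data were known when it was set. The rule also takes in Atp5s, named for coupling factor B, which is not among the structural subunits of the enzyme.

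Hearts of 17 wild-type male C57BL/6J mice, operated on at 8 to 11 weeks of age, were compared 5 days after surgery. In 9 mice the left anterior descending coronary artery (LAD) had been ligated permanently to induce a myocardial infarction (MI), and RNA came from the infarct zone (IZ). The other 8 mice had sham surgery without ligation, and RNA came from the left ventricle (LV). Every library was made from a piece of whole tissue, and the sham LV served as the only reference for the IZ.

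Complex II, succinate dehydrogenase, oxidizes succinate in the citric acid cycle and passes the electrons to ubiquinone. Complex III moves them on to cytochrome c, and complex IV, cytochrome c oxidase, gives them to oxygen. Complexes III and IV pump protons out of the matrix, and complex V, the ATP synthase, lets them flow back through a rotating ring of c subunits and makes ATP. Cardiac muscle has one of the highest contents of these complexes of any tissue, since the beating heart runs almost wholly on oxidative phosphorylation.

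Because the subunits of these complexes are encoded by genes scattered over the genome, their promoters were examined for short motifs of transcription factors known for regulating such genes. Promoter windows of 250 bases before to 50 bases after the start of transcription (RefSeq, GRCm38.p6) were found for 33 of the 43 genes, as 36 windows. The other 10 were Atp5a1, Atp5mpl, Cox4i1, Cox4i2, Cox6c, Cyc1, Sdhc, Uqcrb, Uqcrc2 and Uqcrq. The promoters of Cycs and Atp5g3 are shown because both genes were among those with the lowest IZ levels relative to sham, and each holds 1 motif match. Both are printed 5′ to 3′ on the strand of the gene, as the 250 bases that end just before the start, with the match in capitals. In Cycs (chr6:50566570-50566819, minus strand) the capitals mark the core motif of NRF1 in its reverse complement. In Atp5g3 (chr2:73911327-73911576, minus strand) they mark the motif of the estrogen-related receptors (ERR), also in reverse complement.
Cycs: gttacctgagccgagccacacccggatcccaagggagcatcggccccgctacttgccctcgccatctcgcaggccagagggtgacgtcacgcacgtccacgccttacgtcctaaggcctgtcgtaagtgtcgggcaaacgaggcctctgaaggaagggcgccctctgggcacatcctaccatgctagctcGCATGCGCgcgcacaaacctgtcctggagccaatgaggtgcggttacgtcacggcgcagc
Atp5g3: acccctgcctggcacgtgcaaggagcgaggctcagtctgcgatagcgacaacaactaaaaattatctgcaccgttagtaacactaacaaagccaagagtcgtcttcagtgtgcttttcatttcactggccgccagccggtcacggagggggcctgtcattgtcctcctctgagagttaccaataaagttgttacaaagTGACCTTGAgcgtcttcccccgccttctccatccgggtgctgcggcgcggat

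The NRF1 core (GCGCATGC), searched on both strands, was found in 19.4% of the 36 windows, compared with 5.04% of the 11492 windows of tested genes and 2.71% of all 32851 windows. The genes with it were Atp5g2, Atp5k, Atp5l, Cycs, Sdhb, Uqcr11 and Uqcrc1. A match to its forward form and one to its reverse complement can overlap, as they did in Atp5g2. The ERR motif (TCAAGGTCA) was found in 2 genes, Atp5g3 and Sdhd, or 5.56% of the windows, compared with 0.244% of the windows of tested genes. The motif of ETS factors such as GABPA (CCGGAAGT) was found in 8.33% of the windows (Atp5h, Uqcr11 and Uqcrh) and in 8.07% of those of tested genes. For YY1 (AAGATGGC) the shares were 8.33% (Atp5f1, Atp5j and Atp5j2) and 4.39%, and for SP factors (CCCCGCCC) 19.4% and 32.7%. The counts of windows with a match were 7, 2, 3, 3 and 7 in that order, and no test was made. A match describes the letters of the window and not binding.

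Total counts ran from 1820809 to 4257919 among the sham libraries and from 1237675 to 4738307 among those of the IZ. Only the 3′ end of each transcript was read, so counts were not divided by length, and levels are given as CPM, the counts of a gene per 1000000 counts of the library, after library sizes were adjusted with TMM factors (from the trimmed mean of M values). The 43 genes took 3.29 to 4.01% of all counts in the sham libraries and 1.01 to 2.16% in the IZ. IZ replicate 1 stood apart from the other 8 IZ libraries. It had the highest share, 2.16%, and 19.5% of its counts came from mitochondrially encoded genes, compared with 4.22 to 6.78% in the other IZ libraries and 22.9 to 32.4% in sham. For several summary values and some single genes, values without it are given as well.

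Nearly all of these genes were lower in the IZ. Of the 43 genes, 42 had enough counts to be tested, 41 were called lower with edgeR's quasi-likelihood test at a Benjamini-Hochberg adjusted p under 0.05, and 0 were called higher. Over all 12301 genes tested, 33.1% were called lower and 36.3% higher. The median log2 fold change of the 42 genes was -2.53, with a range from -3.08 for Cyc1 to -0.27 for Cox6b2, whereas the median over all tested genes was 0.05. A log2 fold change below -2 was found for 37 of the 42, and for 7.89% of all tested genes. In 39 of the 42 every IZ library lay below every sham library, which held for 16.5% of all tested genes. The exceptions were Cox4i2, Cox6b2 and Atp5g2. When IZ replicate 1 was left out, the median was -2.79 and 41 genes were called lower.

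In tissue pieces such as these, fewer cells of a type and less RNA per cell cannot be told apart. Markers of cardiomyocytes, the cells richest in these complexes, were lower in the IZ for 14 of 14 genes, with a median log2 fold change of -3.62, or -4.40 without IZ replicate 1. Their summed level was 100502 to 125605 CPM in sham, 43694 CPM in IZ replicate 1 and 4046 to 10111 CPM in the other IZ libraries, and none of the 14 was without counts. Fibroblast markers were higher for 7 of 8 genes, with sums of 1541 to 2981 CPM in sham and 12685 to 20695 CPM in the IZ. Macrophage markers were higher for 7 of 7, with sums of 385 to 553 CPM and 2191 to 5601 CPM. Itgam, also listed for macrophages, was not among the counted features. The part of these shifts in the levels of the subunit genes was not tested.

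**Figure D1:**
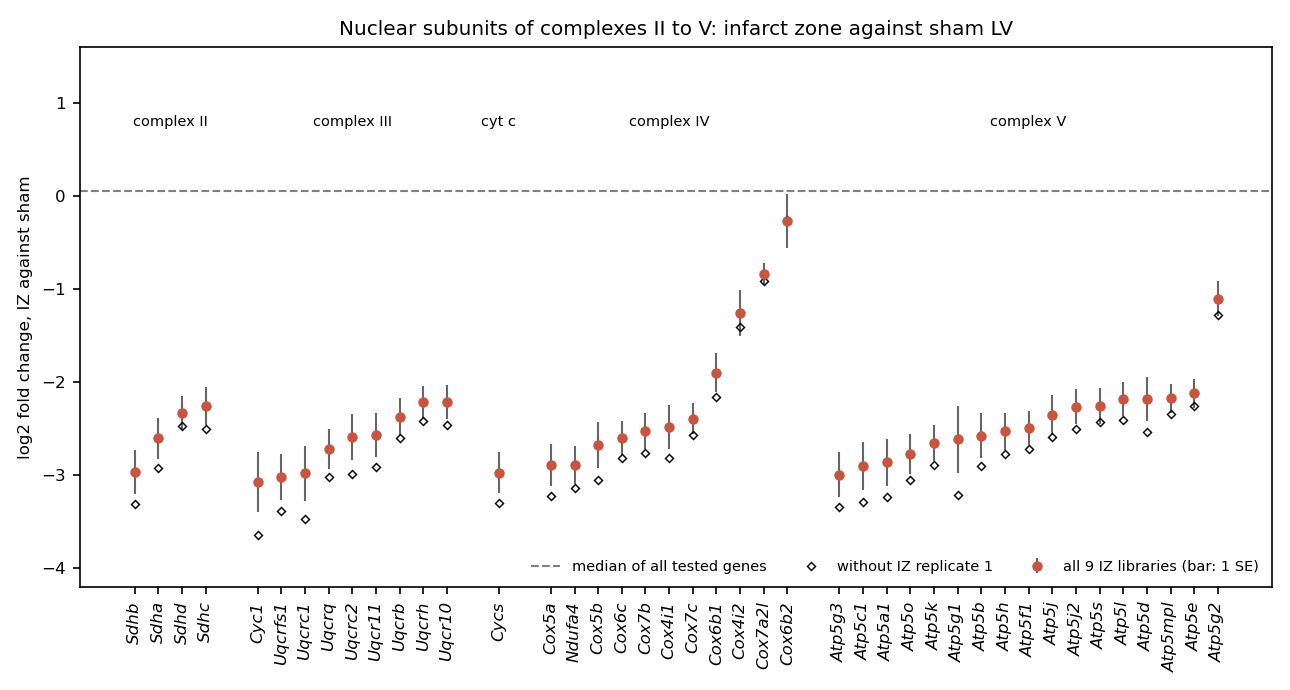
Log2 fold change of IZ against sham (y axis) for the 42 tested genes (x axis), grouped by complex, with bars of 1 standard error (filled circles) and the value without IZ replicate 1 (open diamonds). The dashed line is the median of all tested genes, 0.05. Most genes lie between -2 and -3.1, and Cox6b2, Cox7a2l, Atp5g2 and Cox4i2 lie nearest to the line; without TMM scaling (total counts alone), Cox6b2 and Cox7a2l were above 0.

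Complex II has 4 subunits, all encoded in the nucleus, and all 4 were called lower. Sdhb (ENSMUSG00000009863, chr4:140961203-140979193, plus strand, positions in GRCm38 here and for the other genes), the iron-sulfur subunit that carries electrons towards ubiquinone, had the highest sham level of the 4, with 1274, 1472 and 1772 CPM as the lowest, median and highest library. In the IZ the corresponding levels were 126, 159 and 480.1 CPM, the last in replicate 1, so that the groups did not overlap. Its log2 fold change was -2.97 (SE 0.24, edgeR adjusted p 2.11e-10), the lowest of complex II, and the mean IZ level was 12.8% of the mean in sham. Sdha, the flavoprotein that oxidizes succinate, was at 610.1, 803 and 986 CPM in sham (lowest, median and highest) and at 96.0, 115 and 319 CPM in the IZ. Its log2 fold change was -2.60 (SE 0.22, edgeR adjusted p 4.72e-10). The membrane anchors that hold the haem had log2 fold changes of -2.34 for Sdhd (SE 0.18) and -2.25 for Sdhc (SE 0.20). Their difference from Sdha was not tested. Sdhc had 408, 655 and 766 CPM in sham and 90.4, 107 and 269.6 CPM in the IZ, where replicate 1 was again the highest library.

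All 9 genes of complex III were called lower, with a median log2 fold change of -2.60. With all libraries, Cyc1 and Uqcrfs1, the nuclear subunits that carry electrons, had the lowest values, followed by the core protein Uqcrc1 (-2.98). Without IZ replicate 1, Uqcrc1 (-3.47) lay below Uqcrfs1 (-3.38). Cyc1 (ENSMUSG00000022551, chr15:76343523-76346260, plus strand) encodes cytochrome c1, which hands electrons to cytochrome c. It was at 1066, 1125 and 1268 CPM in sham and at 57.5, 98.4 and 477 CPM in the IZ. It fell most of all 42 tested genes, with a log2 fold change of -3.08 (SE 0.32, edgeR adjusted p 1.41e-08), or -3.65 without IZ replicate 1. Uqcrfs1, the Rieske iron-sulfur protein, was at 992, 1157 and 1299 CPM in sham and at 78.8, 114 and 370.0 CPM in the IZ. Its log2 fold change was -3.02 (SE 0.25, edgeR adjusted p 2.67e-10). In both genes the IZ library nearest to sham was replicate 1, and the next highest were at 120.3 and 139 CPM.

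The core proteins of complex III, which form its large domain in the matrix, had log2 fold changes of -2.98 for Uqcrc1 and -2.60 for Uqcrc2. The 5 small supernumerary subunits ranged from -2.72 for Uqcrq to -2.22 for Uqcr10 and Uqcrh, with Uqcr11 at -2.57 and Uqcrb at -2.37. Uqcrq had the highest sham level of the complex, 1728, 2153 and 2357 CPM, and 236, 280.4 and 742 CPM in the IZ. Uqcr10 was at 793, 868 and 1032 CPM in sham and at 145, 167 and 400.4 CPM in the IZ (SE of its log2 fold change 0.18, edgeR adjusted p 3.53e-10). The groups did not overlap in any gene of complexes II and III.

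Cycs (ENSMUSG00000063694, chr6:50562563-50566538, minus strand) encodes somatic cytochrome c, the soluble carrier between complexes III and IV that also triggers apoptosis when it is released into the cytosol. Its sham levels were 484, 650.0 and 694 CPM (lowest, median and highest), and its IZ levels 52.6, 67.4 and 197 CPM, without overlap. The log2 fold change was -2.98 (SE 0.22, edgeR adjusted p 6.86e-11), and -3.30 without IZ replicate 1. The mean IZ level was 12.7% of the sham mean.

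Complex IV had the widest range of fold changes. Of its 12 chosen nuclear genes, 11 were tested, 10 were called lower and 1, Cox6b2, was not called. Log2 fold changes ran from -2.89 to -0.27 with a median of -2.48. Cox5a, a matrix-facing subunit, was lowest, with 1295, 1361 and 1494 CPM in sham and 109, 152 and 461 CPM in the IZ (log2 fold change -2.89, SE 0.23, edgeR adjusted p 1.68e-10). Ndufa4, first described with complex I and now assigned to complex IV, was close to it, with 1946, 2299 and 2605 CPM in sham, 217, 278 and 648 CPM in the IZ and a log2 fold change of -2.89 (SE 0.20, edgeR adjusted p 2.78e-11). Cox4i1 (ENSMUSG00000031818, chr8:120668222-120674207, plus strand), the ubiquitous form of subunit 4, the largest nuclear subunit of the complex, had the highest sham level of complex IV. It was at 2512, 3103 and 3697 CPM in sham and at 362, 436 and 1385 CPM in the IZ, with a log2 fold change of -2.48 (SE 0.24, edgeR adjusted p 3.47e-09). Cox5b (-2.68), Cox6c (-2.60), Cox7b (-2.53) and Cox7c (-2.39) had similar log2 fold changes. Cox6b1, which faces the intermembrane space at the site where cytochrome c docks, was at -1.90 (SE 0.21, edgeR adjusted p 2.82e-08).

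The other 4 genes of complex IV differed from these in level or in fold change. Cox7a2l (ENSMUSG00000024248, chr17:83501918-83517330, minus strand) encodes a factor described as joining complexes III and IV into supercomplexes. Whether it does so in mice of this strain was not examined. Its levels were 251, 269 and 289.8 CPM in sham and 97.6, 154 and 193 CPM in the IZ. The groups did not overlap and the log2 fold change was -0.84 (SE 0.12, edgeR adjusted p 1.18e-06), but without TMM, with total counts alone, it was 0.23 (edgeR adjusted p 0.063). Cox4i2, the form of subunit 4 known from lung and from pericytes and linked to oxygen sensing, was measured with 8 to 19 counts per sham library and 3 to 19 per IZ library. It was at 4.46, 7.84 and 8.89 CPM in sham and at 1.55, 2.83 and 5.44 CPM in the IZ, where 7 of 9 libraries lay below every sham library. Its log2 fold change was -1.26 (SE 0.25, edgeR adjusted p 9.66e-05), but with total counts alone it was -0.19 and not called (edgeR adjusted p 0.461). Of the 9 markers of pericytes and smooth muscle, 4 were called lower (Rgs5, Kcnj8, Abcc9 and Myh11) and 3 higher (Pdgfrb, Acta2 and Tagln). Over all tested genes, 33.1% were called lower and 36.3% higher. With total counts alone, 2 of these markers were called lower (Kcnj8 and Abcc9) and 4 higher (the same 3 and Notch3). In that setting 1524 of all 12301 tested genes were called lower and 9203 higher.

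Cox6b2 and Cox7b2, isoforms known mainly from testis, were at the edge of detection. Cox6b2 had 2 to 12 counts per sham library and 3 to 29 per IZ library, which gave 1.11, 4.32 and 8.71 CPM in sham and 1.63, 3.72 and 5.08 CPM in the IZ. The groups overlapped fully and its log2 fold change of -0.27 (SE 0.29) did not pass the test (edgeR adjusted p 0.418), whereas with total counts alone it was called higher at 0.82 (edgeR adjusted p 0.0143). Cox7b2 was too low to be tested, with 0 to 2 counts in the libraries of either group. Protamine and other testis genes had at most 1 count in any library.

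All 17 genes of complex V were called lower, with a median log2 fold change of -2.49. In the matrix, alpha and beta subunits form the catalytic head. The gamma, delta and epsilon subunits form the central stalk, which turns with the ring of c subunits. Atp5b (ENSMUSG00000025393, chr10:128083273-128090391, plus strand), the beta subunit that binds and makes ATP, had the highest sham level of all 43 genes, with 4295, 4702 and 5210.0 CPM as the lowest, median and highest library. In the IZ it was at 514, 679 and 1945 CPM, without overlap, and its log2 fold change was -2.58 (SE 0.24, edgeR adjusted p 2.42e-09). The log2 fold changes of the other 4 were -2.86 for Atp5a1 (alpha), -2.90 for Atp5c1 (gamma), -2.18 for Atp5d (delta) and -2.12 for Atp5e (epsilon). The peripheral stalk, which keeps the head from turning with the rotor, comprised Atp5o (-2.77), Atp5h (-2.53), Atp5f1 (-2.49) and Atp5j (-2.35). Among the small membrane subunits, Atp5k was at -2.66, Atp5j2 at -2.27, Atp5l at -2.18 and Atp5mpl at -2.18. Atp5s was measured with 5 to 70 counts per library and was at -2.25 (SE 0.19).

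The rotor ring is made of identical c subunits, and Atp5g1, Atp5g2 and Atp5g3 encode the same mature protein with different import signals. Atp5g3 (ENSMUSG00000018770, chr2:73908447-73911326, minus strand) was at 3239, 3535 and 3648 CPM in sham and at 299.9, 349 and 1128 CPM in the IZ. With a log2 fold change of -2.99 (SE 0.24, edgeR adjusted p 2.83e-10) it was the lowest gene of complex V. Atp5g1 had a log2 fold change of -2.62 (SE 0.36, edgeR adjusted p 9.56e-07), or -3.22 without IZ replicate 1, and the widest spread in sham of the 3 genes relative to its level, from 520.2 to 1298 CPM. Atp5g2 was at 56.7, 77.8 and 120.1 CPM in sham and at 26.0, 34.1 and 69.9 CPM in the IZ, and the groups overlapped through IZ replicate 1. Its log2 fold change of -1.10 (SE 0.19, edgeR adjusted p 1.49e-05) was the highest of complex V, and with total counts alone it was -0.04 and not called (edgeR adjusted p 0.816).

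The plot of shares shows how the counts of the c subunit were divided among the 3 genes. Atp5g2 made up 1.41, 1.79 and 2.42% of the counts of the 3 genes in sham (lowest, median and highest library) and 4.17, 6.71 and 9.32% in the IZ, so that every IZ library lay above every sham library. Atp5g3 made up 71.8 to 85.4% in sham and 65.4 to 79.0% in the IZ, and Atp5g1 12.9 to 25.9% and 14.7 to 28.5%, both with overlap. These shares do not depend on the scaling between libraries, were chosen for display after the values were seen and were not tested. A near-identical copy of Atp5g2 elsewhere in the genome had 180% of its counts. The copy was not included, so the share of Atp5g2 is uncertain. Across the 42 tested genes, the log2 fold change and the log2 of the mean sham level had a Pearson r of -0.74 and a Spearman rho of -0.42. The log2 fold change has the sham level as its base, so part of a negative correlation is built in, and it was not tested. All 42 points come from the same 17 libraries, and the genes with the lowest levels have few counts.

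**Figure D2:**
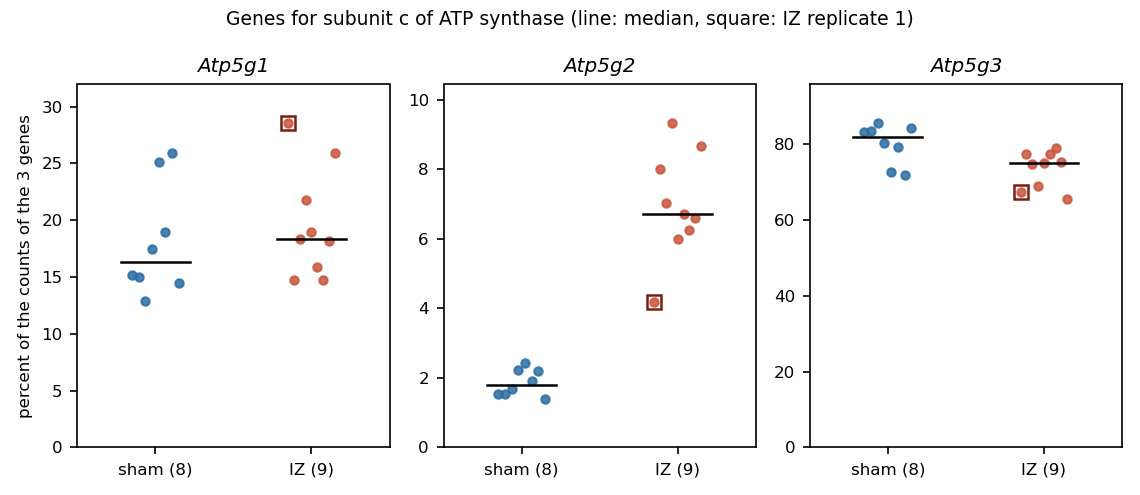
Percent of the summed counts of Atp5g1, Atp5g2 and Atp5g3 (y axis, from 0, with its own scale in each panel) taken by each gene in the 8 sham and 9 IZ libraries (points), with the group median as a line and IZ replicate 1 in a square. The share of Atp5g2 is 1.41 to 2.42% in sham and 4.17 to 9.32% in the IZ, and the shares of the other 2 genes overlap between the groups. Counts of a near-identical copy of Atp5g2 are not included.

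To compare complexes with values that need no scaling between libraries, 1 subunit was taken for each (Sdha, Uqcrfs1, Cycs, Cox4i1 and Atp5b), and the log2 ratio of their counts within each library was compared between the groups, together with 4 further ratios. These 14 ratios were tested by exact two-sided permutation over all 24310 assignments of the libraries, which can give no p below 4.11e-05, and adjusted by Benjamini-Hochberg over the 14. Relative to the other 3 genes, the transcripts for the Rieske protein and cytochrome c fell further. Uqcrfs1/Atp5b was -2.06 ± 0.0654 in sham (SD, n = 8) and -2.53 ± 0.184 in the IZ (SD, n = 9), a difference of -0.47 on the log2 scale, and all 9 IZ libraries lay below all sham libraries (exact permutation p 4.11e-05, adjusted 1.44e-04). Uqcrfs1/Cox4i1 differed by -0.57 (exact permutation, adjusted p 2.47e-04), and in 8 of 9 IZ libraries it was below every sham library. Sdha/Uqcrfs1 differed by 0.47 and Sdha/Cycs by 0.39, both with all 9 IZ libraries above all sham libraries (exact permutation, adjusted p 1.44e-04 for each).

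Cycs/Atp5b differed by -0.39 and Cycs/Cox4i1 by -0.49, with 7 of 9 IZ libraries below every sham library in each (exact permutation, adjusted p 9.36e-04 and 9.60e-04). Between Uqcrfs1 and Cycs no difference was shown (-0.08, with an SD of 0.117 in sham and 0.177 in the IZ, exact permutation, adjusted p 0.334). The same held among Sdha, Cox4i1 and Atp5b. Sdha/Atp5b differed by 0.01 (exact permutation, adjusted p 0.927), Sdha/Cox4i1 by -0.09 (adjusted p 0.498, same test) and Cox4i1/Atp5b by 0.10 (adjusted p 0.215, same test), each with overlapping groups. A p above the threshold does not show that these genes changed alike. The ratios concern single genes, and another choice within a complex gives other values, since Sdhb was at -2.97 and Sdha at -2.60.

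Within complex IV, Cox7a2l/Cox4i1 was 1.74 higher on the log2 scale in the IZ, with all 9 IZ libraries above all sham libraries, and Cox4i2/Cox4i1 was 1.27 higher (exact permutation, adjusted p 1.92e-04 for each). As in all ratios, 0.5 was added to both counts, which matters for Cox4i2 with its 3 to 19 counts per library. Its share in the summed counts of the 2 genes, with nothing added, was 0.132 to 0.329% in sham and 0.305 to 1.02% in the IZ, and 8 of 9 IZ libraries lay above every sham library. Ndufa4/Cox4i1 differed by -0.36 (exact permutation, adjusted p 0.00115), with 7 of 9 IZ libraries below every sham library. Atpif1 encodes the inhibitor that binds the catalytic head when the synthase would run backwards and break down ATP, and its symbol kept it out of the 43 genes. Atpif1/Atp5b was -3.89 ± 0.187 in sham (SD, n = 8) and -1.74 ± 0.363 in the IZ (SD, n = 9), a difference of 2.14 with all 9 IZ libraries above all sham libraries (exact permutation, adjusted p 1.44e-04). Atpif1 itself had a log2 fold change of -0.55 (SE 0.13, edgeR adjusted p 6.81e-04), but with total counts alone it was called higher at 0.51 (edgeR adjusted p 4.41e-04).

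**Figure D3:**
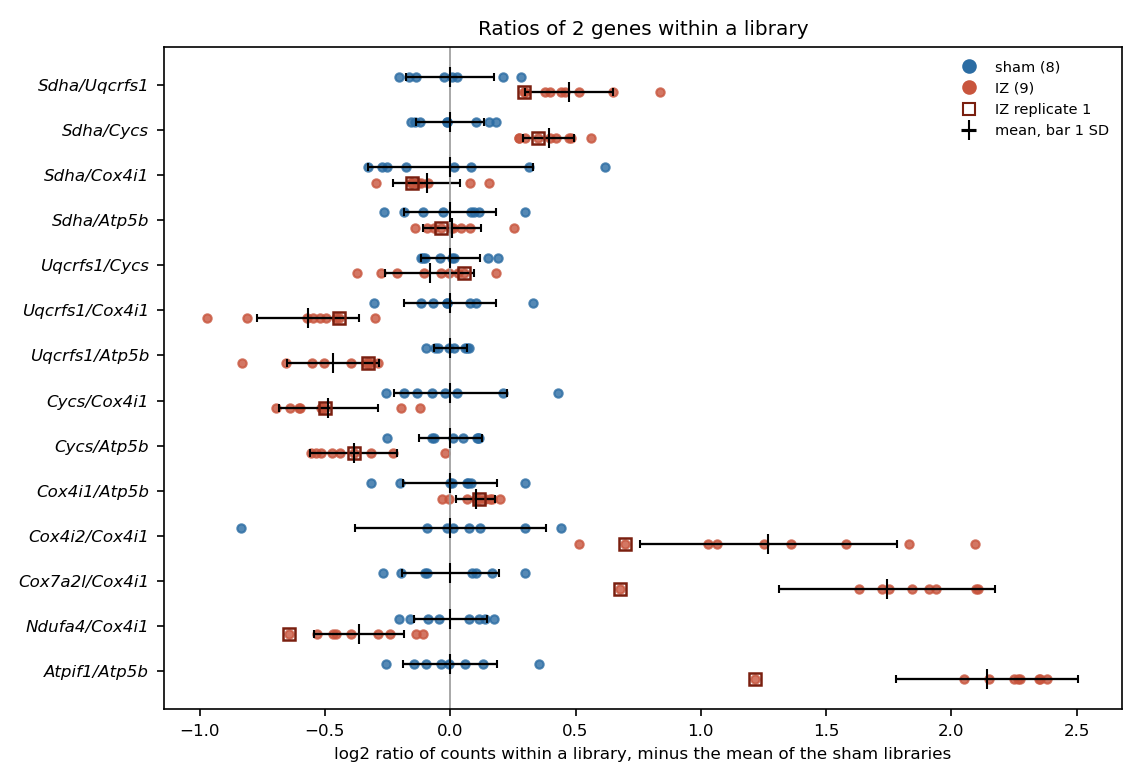
Log2 ratio of the counts of 2 genes within a library, minus the mean of the sham libraries (x axis), for 14 ratios (y axis), with 8 sham and 9 IZ libraries as points, group means with bars of 1 SD, and IZ replicate 1 in a square. Ratios of Uqcrfs1 or Cycs to Cox4i1 or Atp5b lie to the left in the IZ, and Cox7a2l/Cox4i1 and Atpif1/Atp5b lie 1.74 and 2.14 to the right on average.

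When the levels of the chosen genes of a complex were added up in each library, every complex was lower in each IZ library than in any sham library. The summed level of complex II was 2726 to 3980.0 CPM in sham and 395 to 1225 CPM in the IZ, that of complex III 9739 to 11472 and 1271 to 4176 CPM, that of complex IV 12459 to 14743 and 1700.1 to 5201 CPM, and that of complex V 24357 to 27730.1 and 3253 to 9983 CPM. In all of them, as in cytochrome c, the highest IZ library was replicate 1. The mean IZ sum was 16.2% of the mean sham sum for complex II, 16.5% for III, 17.98% for IV and 16.9% for V, and 12.7% for cytochrome c. Without IZ replicate 1 these were 13.7, 13.6, 15.4, 14.2 and 10.4%. The sum of complex IV lacks the 6 isoform genes left out by the rule. Added up, those 6 were at 7600 to 9729 CPM in sham and at 555 to 3565 CPM in the IZ. The place of complex IV beside the other complexes therefore concerns the chosen genes only. Within the sum of all 43 genes, complex IV made up 23.9 to 25.7% in sham and 25.0 to 27.4% in the IZ, and cytochrome c 0.966 to 1.31% and 0.751 to 0.984%, both with overlap. Complex III made up 19.1 to 20.3% in sham, 20.1% in IZ replicate 1 and 18.3% to a highest value of 19.09% in the other 8 IZ libraries, which all lay below the lowest sham library (19.099%). The ranges of complex II and complex V, 5.44 to 6.99% and 47.0 to 49.1% in sham and 5.41 to 6.46% and 47.1 to 48.7% in the IZ, overlapped, and none of these shares was tested.

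Set against the 14 cardiomyocyte markers, the genes were higher in 8 of the 9 IZ libraries than in any sham library. Their sum was 44.2 to 51.8% of the summed cardiomyocyte markers in sham, 47.6% in IZ replicate 1 and 83.9 to 171% in the other 8 IZ libraries. By complex, the median share in sham and in the IZ was 3.08 and 6.38% for II, 9.33 and 18.8% for III, 11.6 and 27.6% for IV, 22.9 and 49.6% for V, and 0.531 and 0.821% for cytochrome c. IZ replicate 1, which kept the highest level of cardiomyocyte markers in the IZ, lay within the sham range for complexes II to V, and with 0.450% just below the lowest sham library (0.457%) for cytochrome c. The genes are also expressed by other cells, and how much of their level came from each cell type was not tested.

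**Figure D4:**
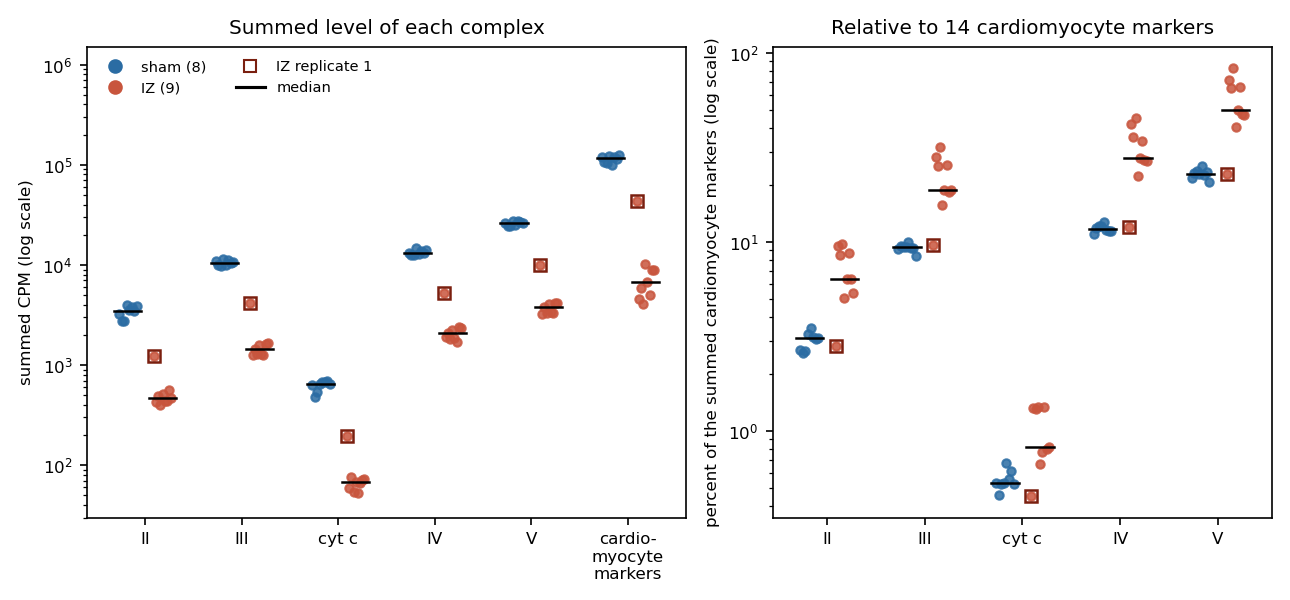
Summed CPM (left, log axis) of the genes of each complex and of 14 cardiomyocyte markers, and the sum of each complex as percent of the summed cardiomyocyte markers (right, log axis), in 8 sham and 9 IZ libraries (points) with group medians as lines and IZ replicate 1 in a square. Every sum is lower in every IZ library than in sham, whereas relative to the markers the IZ libraries other than replicate 1 lie above sham, with some overlap in cytochrome c.

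The level of each gene in each library, set against its mean in sham, shows how uniform the shift was. In the 8 IZ libraries other than replicate 1, levels of most genes were far below the sham mean, and in replicate 1 they were nearer to it. Cox4i2, Cox7a2l, Cox6b2 and Atp5g2 were nearer to their sham means than the other genes in most IZ libraries.

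**Figure D5:**
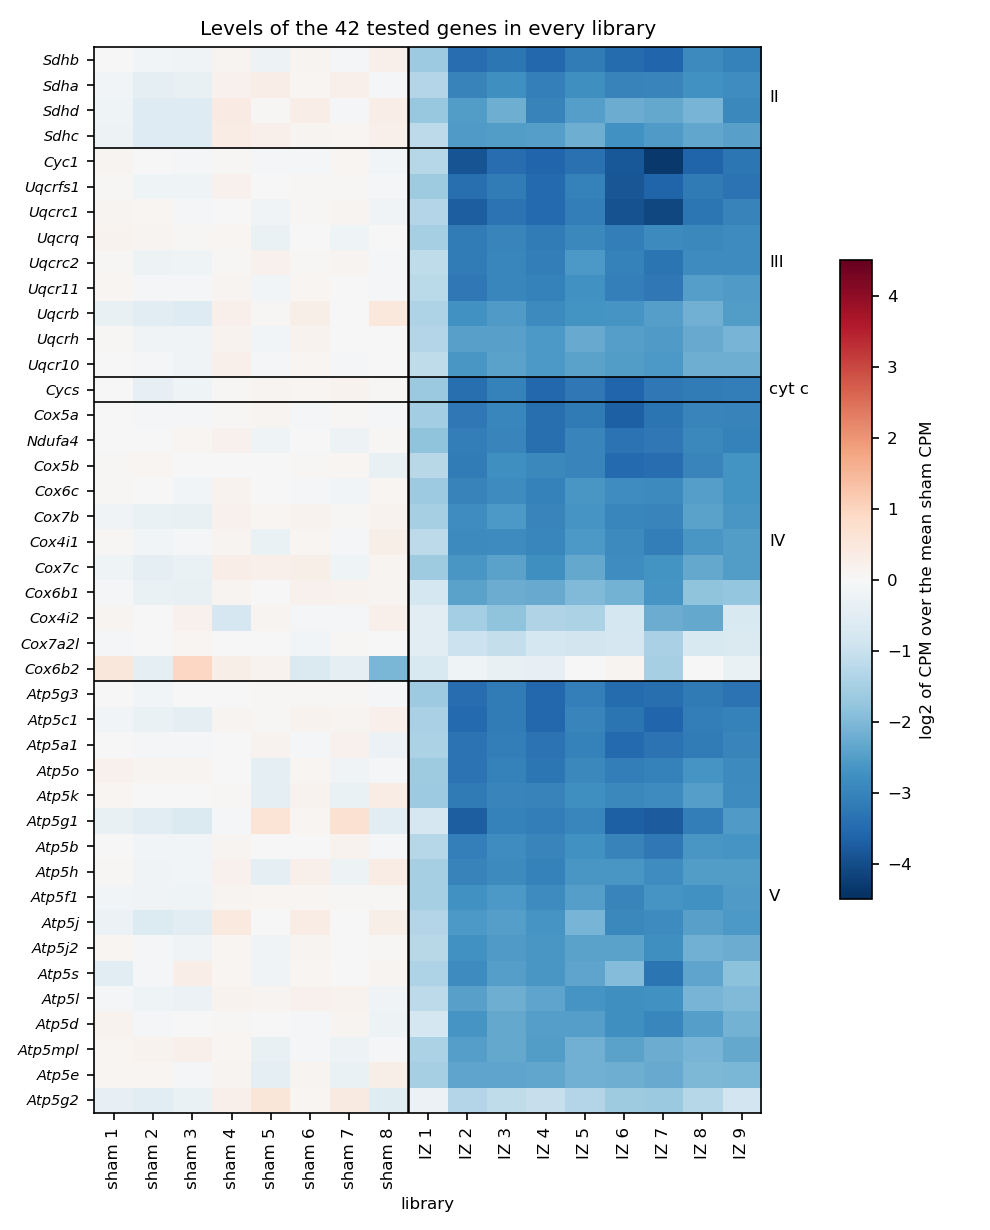
Log2 of CPM over the mean sham CPM (colour) for the 42 tested genes, in lines grouped by complex, and for the 17 libraries, in columns, with sham left and IZ right of the vertical line. Blue is below the sham mean. IZ replicate 1 is paler than the other IZ libraries, and Cox4i2, Cox7a2l, Cox6b2 and Atp5g2 are among the palest lines.

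Other genes of the pathway were examined as lists. All 36 nuclear subunits of complex I tested were called lower, with a median log2 fold change of -2.53 and a range from -3.17 for Ndufa5 to -1.51 for Ndufa7. The 6 subunits of complexes III to V encoded in mitochondrial DNA were all called lower, with a median of -3.08 between -3.31 (mt-Co3) and -2.76 (mt-Atp6). Of the 6 isoform genes left out by the rule, 4 were called lower. For subunit 7a the muscle form Cox7a1 was at -3.94, or -4.85 without IZ replicate 1, and the general form Cox7a2 was also called lower at -2.22 (edgeR adjusted p 7.85e-11). For subunit 6a the muscle form Cox6a2 was at -3.60, or -4.91 without IZ replicate 1, and the general form Cox6a1 at 0.09 (SE 0.13, edgeR adjusted p 0.551), which with total counts alone was called higher at 1.18 (edgeR adjusted p 1.46e-08).

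Assembly factors build the complexes or insert their cofactors and are not part of the finished enzymes. The median log2 fold change of each list was higher than that of the subunits of its complex. All 4 factors of complex II were called lower, from -1.56 for Sdhaf3 to -0.91 for Sdhaf2, with a median of -1.42. All 6 of complex III were called lower, from -2.64 for Uqcc1 to -0.91 for Uqcc3, with a median of -1.28. Of 23 tested factors listed for complex IV, 19 were called lower and 0 higher, with a median of -1.12. They ran from -2.24 for Cox10, which makes haem for the complex, to 0.31 for Pet100 (SE 0.16, edgeR adjusted p 0.0895). The list includes Hccs (-1.62), which acts on cytochromes c and c1 rather than on complex IV. All 5 of complex V were called lower, from -2.96 for Fmc1 to -0.97 for Tmem242, with a median of -1.85. These tallies rest on the scaling. With total counts alone, 2 of 4 factors of complex II, 2 of 6 of complex III and 3 of 5 of complex V were called lower, with medians of -0.37, -0.22 and -0.80, and of the 23 of complex IV 9 were called lower and 8 higher, with a median of -0.05. Pet100 was among the 8, and all 36 subunits of complex I were still called lower. Over all 12301 tested genes, 1524 were called lower and 9203 higher in that setting, with a median log2 fold change of 1.14.

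The carriers that exchange ADP and ATP and import phosphate were called lower in 3 of 3 tested genes. Slc25a4, the ADP/ATP carrier of muscle and heart, was at -3.63 (SE 0.31, edgeR adjusted p 6.18e-10), and Slc25a5, the form of proliferating and many other cells, at -0.69 (SE 0.13, edgeR adjusted p 4.29e-05). With total counts alone Slc25a5 was called higher at 0.39 (edgeR adjusted p 0.00831), and 2 of the 3 carriers were called lower. Usmg5, a small membrane subunit of the ATP synthase that carries another symbol, was at -2.15 (SE 0.19). The differences between these lists and the 43 genes were not tested.

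Limits bear on single values. Several of the genes have processed copies elsewhere in the genome, and 13 of the 43 matched such a copy over at least 100 bases at 95% identity or more near the 3′ end, of which 12 had counts of their own. The counts of the copies came to 316% of those of Atp5l, 188% of Cox7c, 180% of Atp5g2, 79.0% of Atp5h, 74.3% of Cox5b and 41.0% of Cox6c, so that the levels of these genes are uncertain. On the same strand, Cox4i1 overlaps Gm20388, Cox7c overlaps Gm22574, Atp5c1 overlaps Gm23608 and Atp5g2 overlaps Mir688. Atp5b likewise overlaps Mir677 and Snord59a, and Atp5o another entry of the same name. Several genes overlap one on the opposite strand, among them Atp5j with Gabpa, Atp5a1 with Haus1 and Cox6c with Vps13b. Whether strand was used in counting is not given in the sources used here. When the copies were added to the genes they match, the median log2 fold change was -2.51. The scaling set the size of all fold changes. If TMM was left out and total counts were used, the log2 fold change of the median tested gene moved up by 1.09, and the median of the 42 genes was -1.50 with 38 called lower and 1 (Cox6b2) higher.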

How the data were processed

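Total RNA was taken from the 17 hearts with removal of DNA, and the authors made 3′ end libraries (massive analysis of cDNA ends, MACE) with molecular identifiers to remove PCR duplicates. The deposited values were raw counts per gene, without normalization. The submitters' processing notes name Bowtie2, HTSeq and mm10. Which annotation release was used, and what became of reads that map to several places, is not given in the sources used here. Gene identifiers were joined to GENCODE M21 (GRCm38), where 31554 of 31647 matched. Atp5if1 and Atp5f1b stand in the table as Atpif1 and Atp5b.

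The test was that of edgeR 4.0.16 under R 4.3.3 (filterByExpr with a minimum of 10 counts, TMM factors of 0.613 to 1.54, two-sided quasi-likelihood F-test, no covariate) over 12301 genes, adjusted by Benjamini-Hochberg, threshold 0.05. Standard errors were derived from the F statistic. Ratios had 0.5 added to both counts. Labels give each library its own number but no batch, so no batch was modelled. The p-values judge differences between the groups against the spread between these libraries. Intervals were not computed, and counting error grows below about 10 counts. Near-identical copies were sought with BLAST 2.17.0 in the last 500 bases of each transcript. Python 3.11.15, NumPy 2.4.6, pandas 2.3.3, SciPy 1.17.1 and Matplotlib 3.10.9 were also used. The fit was tested on simulated counts with few changed genes, as many raised as lowered. That could not test the scaling when many genes change.

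The genes, lists, motifs and tests were chosen with earlier results of these data known. Named with full values were, by complex, the genes with the lowest and highest log2 fold change and the highest sham level, genes not called lower or not tested, and those in ratios, and of each list its lowest and highest gene. Alternatives were DESeq2 1.42.0, other scalings and filters, thinning, mitochondrial features left out, a replicate block and leaving out each library in turn.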

Additional observations from a re-analysis of the deposited data

Results flagged for a closer look

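Of 74 values by library that were examined for a library far from the rest of its group, 25 were found by Dixon's criterion, which chance alone meets in about 1 in 20 groups. Of the 25, 21 were in IZ replicate 1, where levels were above those of the other 8 IZ libraries and nearer to sham. They were 319.3 CPM for Sdha, 480.2 for Sdhb, 269.6 for Sdhc, 477.3 for Cyc1, 400.4 for Uqcr10, 741.8 for Uqcrq, 370 for Uqcrfs1, 196.8 for Cycs, 460.6 for Cox5a, 1385 for Cox4i1, 647.9 for Ndufa4, 1945 for Atp5b, 1128 for Atp5g3 and 69.94 for Atp5g2. The summed levels of that library stood apart in the same way, with 1225 CPM for complex II, 4176 for III, 196.8 for cytochrome c, 5201 for IV and 9983 for V. So did its log2 ratios of -2.841 for Cox7a2l/Cox4i1 and -2.67 for Atpif1/Atp5b, which were nearer to sham than those of the other IZ libraries.

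The other 4 concern genes with very few counts. Cox4i2 was at 4.461 CPM in sham replicate 4, the lowest sham library, and its log2 ratio to Cox4i1 was -9.479 there. Cox7b2 was at 1.357 CPM in sham replicate 2 and at 1.085 CPM in IZ replicate 7, each from at most 2 counts.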

How the results depend on the processing

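Whichever library was left out, 41 of the subunit genes were called lower and 0 higher. Under the DESeq2 test, other scalings but total counts, thinning, the replicate block and added copies, 40 to 41 were called lower and the median was -2.61 to -2.42. The median log2 fold change over omissions of 1 library ran from -2.79 (without IZ replicate 1) to -2.46, and the numbers of all genes called from 3807 to 4235 lower and 4155 to 4523 higher. Under total counts alone the medians were -1.50 for all tested subunit genes, -1.43 for II, -1.60 for III, -1.96 for cytochrome c, -1.48 for IV and -1.46 for V, and the log2 ratios of mean sums -1.62 (II), -1.60 (III), -1.97 (cytochrome c), -1.46 (IV), -1.56 (V) and -1.55 (all). Of the subunit genes, 1 was then called higher, Cox6b2 (0.82), and Cox7a2l turned to 0.23 without a call, and of all genes 1524 were called lower and 9203 higher. A minimum mean of 50 counts left 2492 lower and 2747 higher among 6734 genes tested.

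The ratio Sdha/Atp5b, near 0, was -0.0211 as a difference of medians and ran from -0.0312 to 0.0493 over omissions of 1 library. The ratio Cox4i1/Atp5b ran from 0.0553 to 0.143 and passed the exact permutation test (adjusted p 0.0259) only without sham replicate 8. With the replicate block the median of the genes was -2.61, and 3858 of all genes were called lower and 4221 higher. The numbers do not pair libraries, since same-numbered libraries had correlations of -0.22 to 0.13. Adding near-identical copies, chosen after seeing the data, left 41 genes called lower. Depth limits Cox4i2, Cox6b2 and Cox7b2, with few counts per library.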
